A study of Mus musculus with 5 samples.

Results

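Transcripts of 35 genes of the T cell receptor and the T lineage were read in RNA-seq libraries labelled as CRC tumours, from mice kept at 30 °C or 4 °C. The 35 genes are a list of symbols, taken from the 54113 named entries of the count table. The list was chosen with earlier results of these libraries in view, that is, selected on what the genes are and on measured values of this contrast, so their levels at 4 °C and 30 °C, in counts scaled to a library of 1000000 (CPM), are given as a description and not as a test. All 35 symbols were found, each on a single entry, and all 35 passed the filter on low counts, with between 46 and 3412 counts per library.

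All mice were of the C57BL/6 strain and carried tumours of the MC38 line, a mouse colon adenocarcinoma line implanted under the skin (study's methods). The animals spent 2 weeks at 30 °C, which is close to thermoneutral for a mouse and served as the control (3 libraries), or at 4 °C, a cold stress (2 libraries). No genotype, agent or treatment other than temperature is named, the study's methods give the ages and sexes only for its mice in general, and the sample labels do not say whether a library came from 1 animal. Spread between libraries may therefore be technical in part.

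T cells recognise peptides on MHC molecules through a receptor of alpha and beta chains, which lack signalling tails of their own and are held at the surface by the CD3 and zeta chains. CD4 and CD8 bind MHC class II and class I, bring the kinase LCK to the receptor, and LCK and ZAP-70 then phosphorylate adaptors such as LAT and SLP-76. In tumours, CD8 T cells can kill cancer cells, whereas regulatory T cells, marked by FOXP3, hold other T cells back.

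Sequencing depth was 16191708 to 20320525 counts on genes with a name. A single library stood apart: 43 pancreatic acinar genes took 32.06% of the counts in 30 °C replicate 2, against 0.326% in 4 °C replicate 2 and at most 0.0110% in the other 3 libraries. For that reason the levels below are CPM scaled by TMM, a factor per library that is set by the bulk of the genes, unless stated otherwise. The labelled tissue was checked against defining markers. Of 6 carcinoma markers (Epcam, Krt8, Krt18, Krt19, Cdx1 and Cdx2), Cdx1 had 0 counts in every library. The summed TMM-scaled CPM of the 6 were 50.9, 127 and 13.8 at 30 °C and 13.7 and 84.5 at 4 °C. In each group the highest sum was in replicate 2, the library of that group with the most acinar counts. The part of pancreatic tissue in these sums was not tested. The 3 B cell markers used (Cd79a, Cd79b and Ms4a1) summed to between 751 and 2086, and the 8 T cell markers, all of them members of the list, to between 270 and 630. Tlx1, Nkx2-5 and Nkx2-3, transcription factors of the splenic mesenchyme that were picked after their values had been seen, had at least 48 counts in every library and summed to 38.9, 32.5 and 41.4 at 30 °C and 61.2 and 57.2 at 4 °C. B cell markers thus exceeded carcinoma markers in every library, which goes against a label of tumour tissue alone. How much of the RNA came from tumour cannot be told from these files, so the T cell levels are those of the libraries labelled tumour tissue. In bulk tissue, a difference in the number of T cells and a difference in RNA per T cell cannot be told apart.

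Of the genes that carry the result, Trbc1 and Trbc2, the constant segments of the receptor beta chain, are near-identical copies on chromosome 6 (GRCm38, plus strand, 41538218 to 41539881 and 41546730 to 41548352, with 6.85 kb between them). Over the 518 coding bases of their constant regions in GENCODE M21, 23 bases differed (95.6% identity). Of these differences, 4 fell in the first 398 bases and 19 in the last 120. The last 120 are shown 5′ to 3′, with the differing bases in capitals, because most of the coding differences lie there. Exon bases outside the coding stretch were not compared.
Trbc1: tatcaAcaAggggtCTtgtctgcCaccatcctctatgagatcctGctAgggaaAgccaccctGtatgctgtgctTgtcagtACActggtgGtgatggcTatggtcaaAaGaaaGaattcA
Trbc2: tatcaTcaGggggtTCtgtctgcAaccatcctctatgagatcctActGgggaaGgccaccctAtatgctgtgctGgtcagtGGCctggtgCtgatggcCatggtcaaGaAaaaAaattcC
How reads that match both copies were counted is not given in the sources used here, so the split of counts between Trbc1 and Trbc2 is uncertain, whereas their sum is less so. In counts, the ratio of Trbc2 to Trbc1 was 2.02, 2.00 and 1.69 in the libraries at 30 °C and 1.81 and 1.79 at 4 °C. The groups overlapped in this ratio.

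The genes of the 3 CD3 chains lie side by side on chromosome 9. Cd3g (44969572 to 44980431, minus strand) and Cd3d (44981786 to 44987339, plus strand) point away from each other across 1.35 kb, and Cd3e (44998740 to 45009627, minus strand) follows after 11.4 kb. Since their levels ran in parallel across the libraries, the 250 bases upstream of each RefSeq start (GRCm38.p6) are shown 5′ to 3′ on the strand of the gene, with matches to the short motifs listed after them in capitals.
Cd3e, chr9:45009612-45009861, minus strand: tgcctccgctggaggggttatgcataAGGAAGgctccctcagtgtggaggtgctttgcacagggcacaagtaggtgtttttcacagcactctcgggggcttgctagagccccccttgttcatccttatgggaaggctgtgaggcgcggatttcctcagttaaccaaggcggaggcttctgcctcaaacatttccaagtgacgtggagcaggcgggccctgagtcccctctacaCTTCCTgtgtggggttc
Cd3d, chr9:44981536-44981785, plus strand: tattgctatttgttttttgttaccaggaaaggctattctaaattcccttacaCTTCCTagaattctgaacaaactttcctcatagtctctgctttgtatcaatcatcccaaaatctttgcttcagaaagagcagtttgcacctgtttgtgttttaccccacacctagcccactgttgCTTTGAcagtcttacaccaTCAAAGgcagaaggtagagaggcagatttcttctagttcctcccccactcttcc
Cd3g, chr9:44980432-44980681, minus strand: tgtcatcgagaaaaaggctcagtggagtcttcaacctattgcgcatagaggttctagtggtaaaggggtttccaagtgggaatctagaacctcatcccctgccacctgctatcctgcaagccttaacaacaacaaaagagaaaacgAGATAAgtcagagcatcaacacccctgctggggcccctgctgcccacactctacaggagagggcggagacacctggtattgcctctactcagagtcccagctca
Motifs were searched on both strands, and none of them overlapped another in these windows. The ETS core AGGAAG was found in Cd3e (2 matches) and Cd3d (1 match), the TCF and LEF motif CTTTGA in Cd3d (2 matches) and the GATA motif AGATAA in Cd3g (1 match). The RUNX motif TGTGGT had no match in the 3 windows. Upstream windows were at hand for 22 of the 35 genes. AGGAAG occurred in 11 of the 22 (50.0%) and in 29.2% of 27025 windows of the same length, CTTTGA in 6 (27.3%, against 14.0%), TGTGGT in 2 (9.1%, against 14.2%) and AGATAA in 2 (9.1%, against 10.3%). The list was chosen on measured values and windows were at hand for only part of it, so nothing is read from these shares. A match to these letters is not evidence that a factor binds there.

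**Figure D1:**
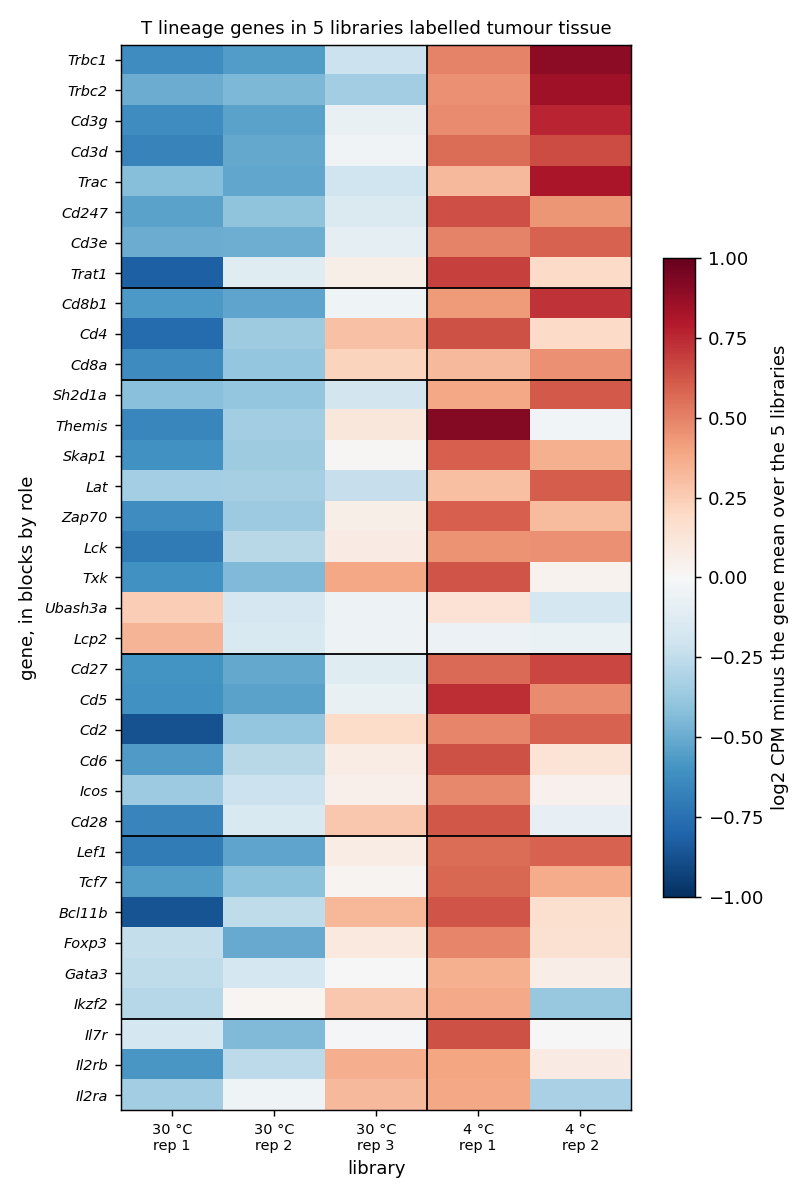
Level of each of the 35 genes (rows, in blocks by role) in each library (columns), as log2 CPM minus the mean of that gene over the 5 libraries, where red is above and blue below the mean. The receptor chains at the top are below their mean in all 3 libraries at 30 °C, apart from Trat1 in 30 °C replicate 3. They are above it in both libraries at 4 °C. Other blocks hold genes that lack this pattern. Cd4, Cd8a, Cd2, Bcl11b, Txk and Il2rb, among others, are above their mean in 30 °C replicate 3. Lcp2, Ubash3a, Ikzf2, Il2ra, Cd28, Themis and Il7r are below theirs in 4 °C replicate 2.

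Summed over the 35 genes, TMM-scaled CPM were 943, 1013 and 1342 in the libraries at 30 °C and 1803 and 1753 at 4 °C. In CPM without this scaling the sums were 1014, 747 and 1512 at 30 °C and 1948 and 1807 at 4 °C, and with the acinar counts taken out of the library total 30 °C replicate 2 moved to 1099. Both libraries at 4 °C were above every library at 30 °C on each of these scales. The libraries at 30 °C differed among themselves: 30 °C replicate 3 was above the other two in 33 of the 35 genes, 30 °C replicate 1 was the lowest of all 5 libraries in 29, and the median coefficient of variation at 30 °C was 21.5%.

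Gene by gene, 33 of the 35 (94.3%) had a fitted log2 fold change above 0 at 4 °C, against 50.7% of the 16133 genes tested. The median log2 fold change was 0.75, a 1.68-fold difference, and ranged from −0.12 for Lcp2 to 1.16 for Trbc1, while the median of all genes tested was 0.01. With the quasi-likelihood test of edgeR, 0 of the 35 genes passed an adjusted p of 0.05 (smallest adjusted p = 0.689), where the background over all genes was 0.00%. At an unadjusted p under 0.05, 19 of the 35 were higher and 0 lower, against 2.58% and 4.17% of all genes, and the DESeq2 Wald test called 9 higher (Trbc2, Trbc1, Cd3g, Cd27, Cd247, Trac, Cd3e, Cd5 and Cd3d), against 0.222% of 11697 genes with an adjusted p. In 24 of the 35, both libraries at 4 °C were above all 3 at 30 °C (12.2% of all genes), in 0 both were below (11.0% of all genes), and in 11 the groups overlapped. Without TMM scaling, in CPM of the library totals, 20 were non-overlapping, as Cd6, Gata3, Il7r and Foxp3 then overlapped. As the list was drawn up with this contrast known, nothing is read from these counts.

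**Figure D2:**
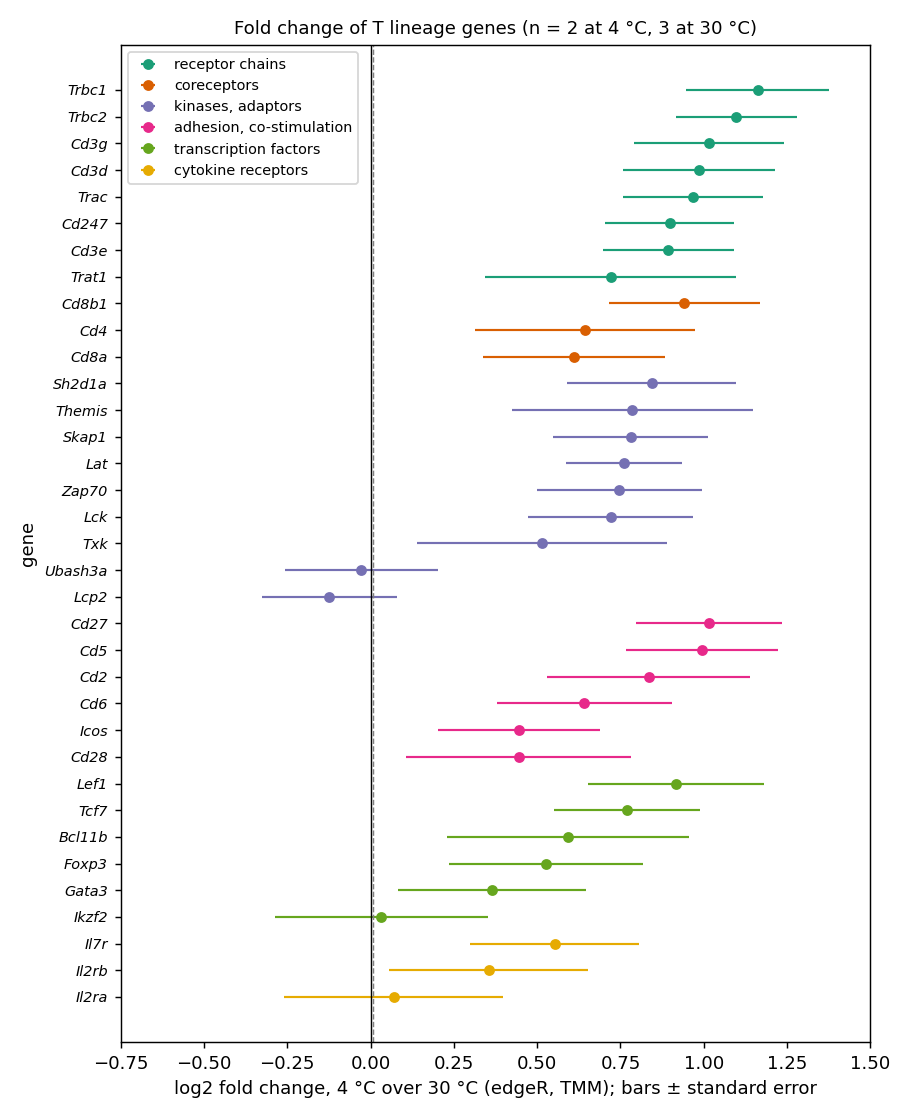
Fitted log2 fold change between 4 °C (n = 2) and 30 °C (n = 3) for each of the 35 genes, coloured by role, with bars of 1 standard error on either side. The solid line is at 0 and the dashed line at the median of all genes tested. Receptor and CD3 chains lie between 0.72 and 1.16, and Lcp2 and Ubash3a lie below 0 with bars that cross it.

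The receptor and CD3 chains were the block with the largest differences, with a median log2 fold change of 0.98 (1.97-fold) and all 8 genes non-overlapping. Their summed level was 219, 228 and 284 TMM-scaled CPM at 30 °C and 447 and 536 at 4 °C. Trbc2 stood at 50.6, 52.2 and 56.0 at 30 °C and at 98.1 and 128 at 4 °C, with a log2 fold change of 1.10 (SE 0.18). The 3 libraries at 30 °C lay close together, and 4 °C replicate 2 was the highest. Trbc1 had 25.0, 26.1 and 33.2 at 30 °C against 54.3 and 71.7 at 4 °C, a log2 fold change of 1.16 (SE 0.21). Trac, the constant segment of the alpha chain (chromosome 14, 54220521 to 54224206), had 39.8, 37.4 and 46.8 against 67.3 and 94.5, a log2 fold change of 0.97 (SE 0.21). In all 3 constant segments 4 °C replicate 2 was well above 4 °C replicate 1.

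Among the CD3 chains, which carry the signalling motifs of the complex, Cd3e had 24.3, 24.4 and 32.1 TMM-scaled CPM at 30 °C and 48.4 and 51.8 at 4 °C. Cd3d had 24.8, 27.7 and 38.6 against 58.2 and 62.1, and Cd3g had 30.5, 32.5 and 44.7 against 65.3 and 80.0. Their log2 fold changes were 0.89 (SE 0.20), 0.99 (SE 0.23) and 1.02 (SE 0.22), and 30 °C replicate 3 was in each case the highest of its group. The zeta chain gene Cd247, on chromosome 1, had 21.4, 23.4 and 28.0 against 48.4 and 42.1 (log2 fold change 0.90, SE 0.19), and here 4 °C replicate 1 was the higher of the cold pair. Trat1, a transmembrane adaptor bound to the receptor, was low throughout, at 2.45, 4.03 and 4.59 against 7.11 and 5.03 (log2 fold change 0.72, SE 0.38). Its groups were only just apart. Per kilobase of exon, the ratio of Cd3d to Cd3e was 2.29, 2.55 and 2.70 at 30 °C and 2.70 in both libraries at 4 °C, and the ratio of the summed beta constant segments to Trac was 2.50, 2.76 and 2.50 against 2.98 and 2.78. The ratio of Cd3g to Cd3e was 1.56, 1.66 and 1.73 against 1.68 and 1.93, and that of Trac to Cd3e was 7.14, 6.69 and 6.36 against 6.06 and 7.96, with the lowest and the highest value in the cold libraries.

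Variable segments of the receptor, which are not on the list of 35, were summed over every segment in the table, since most single segments had few counts. The 35 beta variable segments summed to 32.7, 44.9 and 55.1 TMM-scaled CPM at 30 °C and 86.8 and 69.9 at 4 °C. The 128 alpha variable segments summed to 15.4, 15.9 and 19.7 against 24.2 and 21.4. Both sums were higher in the cold libraries, with 4 °C replicate 1 the highest of all. The beta segments with the smallest p were Trbv2 (log2 fold change 1.16, SE 0.36), Trbv13-1 (1.16, SE 0.37) and Trbv31 (1.13, SE 0.37), and Trbv2 had 1.17, 1.81 and 1.57 at 30 °C and 3.23 and 3.54 at 4 °C. In counts, all beta variable segments together came to 0.433, 0.574 and 0.618 of the beta constant segments at 30 °C and to 0.570 and 0.349 at 4 °C. The alpha variable segments came to 0.388, 0.424 and 0.421 of Trac at 30 °C and to 0.359 and 0.226 at 4 °C, so in 4 °C replicate 2 the constant segments were high relative to the variable segments of both chains. For gamma delta T cells, the other receptor lineage, the gamma constant genes summed to 3.89, 4.52 and 5.20 TMM-scaled CPM at 30 °C and 6.96 and 8.21 at 4 °C. Among them Tcrg-C1 stood at 1.17, 1.31 and 1.70 against 2.24 and 2.88. The delta constant gene Trdc, named after its values were seen, came to between 0.0575 and 0.123 of Trac in counts, and the groups overlapped.

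The coreceptor genes had a median log2 fold change of 0.64, and 2 of the 3 were non-overlapping. Cd4 was measured at 40.3, 53.8 and 84.1 TMM-scaled CPM at 30 °C and at 107 and 78.5 at 4 °C (log2 fold change 0.64, SE 0.33). The groups overlapped, since 30 °C replicate 3 was above 4 °C replicate 2. Cd8a stood at 34.9, 41.3 and 63.1 against 67.7 and 74.2 (log2 fold change 0.61, SE 0.27), with 30 °C replicate 3 close to the cold libraries. For Cd8b1, the gene of the CD8 beta chain that marks conventional CD8 T cells, the values were 24.5, 25.2 and 35.3 against 48.9 and 60.1 (log2 fold change 0.94, SE 0.23). The ratio of Cd4 to Cd8a counts was 1.15, 1.30 and 1.33 at 30 °C and 1.58 and 1.06 at 4 °C, so the cold libraries held both the highest and the lowest ratio. The mean log2 ratios of the groups differed by 0.04. The ratio of Cd8a to Cd8b1 counts was 1.43, 1.64 and 1.79 against 1.38 and 1.24, lower in both cold libraries. CD8 alpha is also made without beta, by dendritic cells and by some unconventional lymphocytes. A split of 3 against 2 libraries can be made in 10 ways, so an exact one-sided permutation test of such a ratio could not give a p below 0.10 and none is given.

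Of the 9 kinases and adaptors that carry the receptor signal, 7 had a log2 fold change above 0 and 5 were non-overlapping (median 0.75). Lck, the SRC-family kinase of the coreceptors, was the most abundant of the kinases per kilobase, and stood at 53.3, 72.0 and 92.0 TMM-scaled CPM at 30 °C and at 119 and 120 at 4 °C (log2 fold change 0.72, SE 0.25). Zap70, the kinase recruited to the phosphorylated CD3 and zeta chains, had 17.4, 20.8 and 27.8 against 40.5 and 33.3 (0.75, SE 0.25). Both genes were graded across the libraries at 30 °C. Lat, the membrane scaffold phosphorylated by ZAP-70, had 32.9, 32.9 and 35.5 against 51.1 and 63.3 (0.76, SE 0.17), with little spread at 30 °C. Skap1, an adaptor on the path to integrin activation, had 16.6, 19.8 and 25.5 against 38.4 and 32.5 (0.78, SE 0.23). Sh2d1a, which encodes the adaptor SAP of the SLAM receptors, had 4.74, 4.85 and 5.59 against 8.36 and 9.83 (0.84, SE 0.25). In these 5 genes the lowest cold library was above every library at 30 °C.

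The other 4 genes of this block overlapped between the groups. Themis, needed for thymocyte selection, ranged from 7.72 to 13.1 at 30 °C and had 23.0 and 11.9 at 4 °C, so its log2 fold change of 0.79 (SE 0.36) rested on 4 °C replicate 1. It was 0.23 without that library. Txk, a TEC-family kinase, ranged from 6.87 to 13.8 at 30 °C and from 10.8 to 16.3 at 4 °C. Lcp2 and Ubash3a were the genes with a log2 fold change below 0. Lcp2, the gene of SLP-76, stood between 103 and 145 at 30 °C and at 110 in both cold libraries (log2 fold change −0.12, SE 0.20). It was highest in 30 °C replicate 1, and SLP-76 is also used by myeloid cells and platelets. The 13 myeloid markers summed to 11105, 7522 and 4457 TMM-scaled CPM at 30 °C and 4279 and 6030 at 4 °C, with the highest sum in the same library, most of it from the neutrophil genes S100a8 and S100a9 (2661 and 3990 there). The 5 defining myeloid markers (Csf1r, Adgre1, Itgam, Lyz2 and Ly6g) summed to 3155, 2689 and 2689 against 2816 and 3635, with the highest sum in 4 °C replicate 2. The part of myeloid cells in the level of Lcp2 was not tested. Ubash3a, a phosphatase-like negative regulator of the receptor, ranged from 13.3 to 17.7 at 30 °C and from 13.2 to 16.5 at 4 °C (−0.03, SE 0.23).

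All 6 adhesion and co-stimulatory receptors were above 0 (median log2 fold change 0.74) and 4 were non-overlapping. Cd27, a receptor of the TNF family on naive and memory T cells, had 11.0, 11.7 and 15.3 TMM-scaled CPM at 30 °C and 24.7 and 26.5 at 4 °C (log2 fold change 1.01, SE 0.22). Cd5, which damps receptor signals, had 18.1, 19.1 and 26.2 against 46.1 and 38.3 (1.00, SE 0.23). These were the largest differences of the 35 outside the receptor complex. CD27 and CD5 are also carried by subsets of B cells. Cd2, an adhesion receptor shared with NK cells, had 44.4, 61.9 and 92.0 against 114 and 122 (0.83, SE 0.31), with a spread at 30 °C wider than its gap to the cold libraries. Cd6, a relative of CD5 on the same stretch of chromosome 19 (50.3 kb from it), had 19.6, 24.0 and 30.7 against 45.3 and 31.9 (0.64, SE 0.26). In Cd6 the gap between 30 °C replicate 3 and 4 °C replicate 2 was small. Cd28, the main co-stimulatory receptor, ranged from 14.4 to 27.6 at 30 °C and had 35.2 and 21.5 at 4 °C, and its log2 fold change of 0.44 was 0.04 without 4 °C replicate 1. Icos, its relative induced on activated T cells, ranged from 10.4 to 13.9 against 13.8 to 18.7.

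Transcription factors of the lineage had a median log2 fold change of 0.56, with 4 of 6 non-overlapping, or 2 of 6 without TMM scaling. Tcf7, which encodes TCF-1 of naive and memory-like T cells, was the most abundant of them per kilobase and stood at 77.6, 85.8 and 116 TMM-scaled CPM at 30 °C and at 170 and 148 at 4 °C (log2 fold change 0.77, SE 0.22). Lef1, the partner of TCF-1, had 16.3, 18.4 and 27.9 against 39.1 and 39.8 (0.92, SE 0.26). Both cold libraries were well clear of the others in this pair of genes. Foxp3, the factor that defines regulatory T cells, had 5.96, 4.93 and 7.55 against 9.90 and 7.85 (0.53, SE 0.29), and Gata3, needed for CD4 commitment and type 2 helper cells, had 4.20, 4.44 and 5.02 against 6.47 and 5.27 (0.37, SE 0.28). For both, 30 °C replicate 3 and 4 °C replicate 2 were nearly level. In counts, Foxp3 came to 0.148, 0.0916 and 0.0898 of Cd4 at 30 °C and to 0.0924 and 0.100 at 4 °C, where the groups overlapped. Bcl11b, which holds cells in the T lineage, ranged from 12.8 to 29.6 at 30 °C and from 26.2 to 36.3 at 4 °C. Ikzf2, the gene of Helios, ranged from 7.82 to 11.5 against 7.31 to 12.5 (log2 fold change 0.03, SE 0.32).

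Cytokine receptor chains had the smallest differences of the 6 blocks (median log2 fold change 0.35). Il7r, the IL-7 receptor chain that sustains naive and memory T cells, had 23.1, 19.2 and 26.0 TMM-scaled CPM at 30 °C and 40.7 and 26.1 at 4 °C (log2 fold change 0.55, SE 0.25). It counted as non-overlapping by a margin far below the spread at 30 °C. Il2rb, shared by the IL-2 and IL-15 receptors and abundant on NK cells, ranged from 49.6 to 95.5 against 78.7 to 97.8 (0.35, SE 0.30). Il2ra, the high-affinity IL-2 receptor chain on regulatory and newly activated T cells, ranged from 7.45 to 11.9 against 7.55 to 12.4 (0.07, SE 0.33). Its log2 fold change was between −0.34 and 0.37 when each library was left out in turn.

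Per kilobase of exon, which allows levels to be compared between genes, Trbc2 was the highest of the 35 at 111 TMM-scaled CPM per kilobase (mean of 5 libraries), ahead of Trac (61.1), Trbc1 (56.1), Cd2 (49.8), Tcf7 (45.5) and Lck (31.1). Among Trac, Trbc1, Cd2 and Tcf7, neighbours in this order had overlapping ranges over the libraries. At the low end were Trat1 (0.995) and Ikzf2 (0.841). Exon length here counts every annotated exon base, so a gene with long, little-used exons is placed too low.

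To see how the members moved relative to each other, each was set against the summed counts of Cd3e, Cd3d and Cd3g in the same library, a ratio that does not depend on scaling between libraries. In 22 of the other 32 genes the groups overlapped. Trbc1 alone was higher in both cold libraries, at 31.4%, 30.9% and 28.8% of CD3 counts at 30 °C and 31.6% and 37.0% at 4 °C, a narrow margin. In both cold libraries 9 genes were lower, namely Lcp2, Ubash3a, Ikzf2, Il2ra, Gata3, Il2rb, Icos, Foxp3 and Cd8a. Of the 16130 genes tested other than these CD3 genes, 76.5% were lower than at 30 °C by the same measure and 0.198% higher, since the CD3 counts themselves were higher at 4 °C. A lower ratio to CD3 is therefore what most genes had, and nothing particular to the 9 is read from it. Lcp2 had the largest difference, from 182%, 122% and 96.1% of CD3 to 64.0% and 56.5%, and Ubash3a went from 22.3%, 15.7% and 12.5% to 9.61% and 6.83%. Foxp3 went from 7.49%, 5.83% and 6.55% of CD3 to 5.76% and 4.05%. Cd27 stayed between 13.3% and 14.4% of CD3 in all 5 libraries and Cd8b1 between 28.4% and 31.0%. Cd5 was at 22.5% to 22.7% at 30 °C and at 26.8% and 19.7% at 4 °C, so its cold libraries lay on either side.

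**Figure D3:**
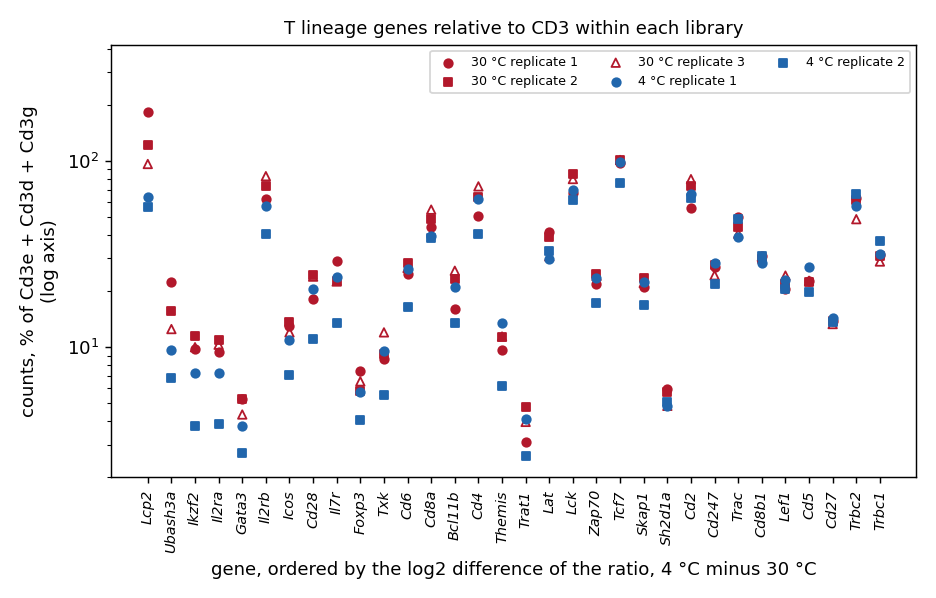
Counts of the other 32 genes as a percentage of the summed Cd3e, Cd3d and Cd3g counts of the same library (log axis), ordered by the difference of the mean log2 ratio between 4 °C and 30 °C. Each point is 1 library, red for 30 °C and blue for 4 °C. At the left end, Lcp2 and Ubash3a have all red points above the blue ones, and towards the right Cd27 and Cd8b1 have points that lie nearly on top of each other.

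The cold libraries differed from each other in a way that followed exon length. Of the 35 genes, 21 were higher in 4 °C replicate 1 and 14 in 4 °C replicate 2. Across the 35, the log2 ratio of replicate 2 to replicate 1 had a Spearman correlation of −0.743 with exon length, and across 11363 genes with at least 100 counts on average it was −0.533. Genes share libraries and are not independent, so these are descriptions. Between pairs of libraries at 30 °C the same correlation over all genes was 0.235 to 0.387, and for the fitted log2 fold change between 4 °C and 30 °C it was −0.293 over all genes and −0.516 over the 35. The shortest quartile of genes (up to 2723 bases), which holds Trbc1, Trbc2, Trac, Cd8b1, Cd3d, Cd2, Tcf7 and Cd27, had a median log2 fold change of 0.14 over all genes and 0.98 over these 8. In the longest quartile (from 6871 bases), with Themis, Ikzf2, Ubash3a, Txk, Bcl11b, Cd6, Skap1 and Lef1, these medians were −0.12 and 0.62. An alternative added after seeing the data subtracted the median of the length quartile from each gene. The median of the 35 was then 0.72 and 34 were above 0. The list was chosen with this contrast known, and a single median per quartile leaves any trend within the quartile, so nothing is read from these values. The part of length in the difference between short receptor segments and long genes such as Ikzf2 was not tested.

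**Figure D4:**
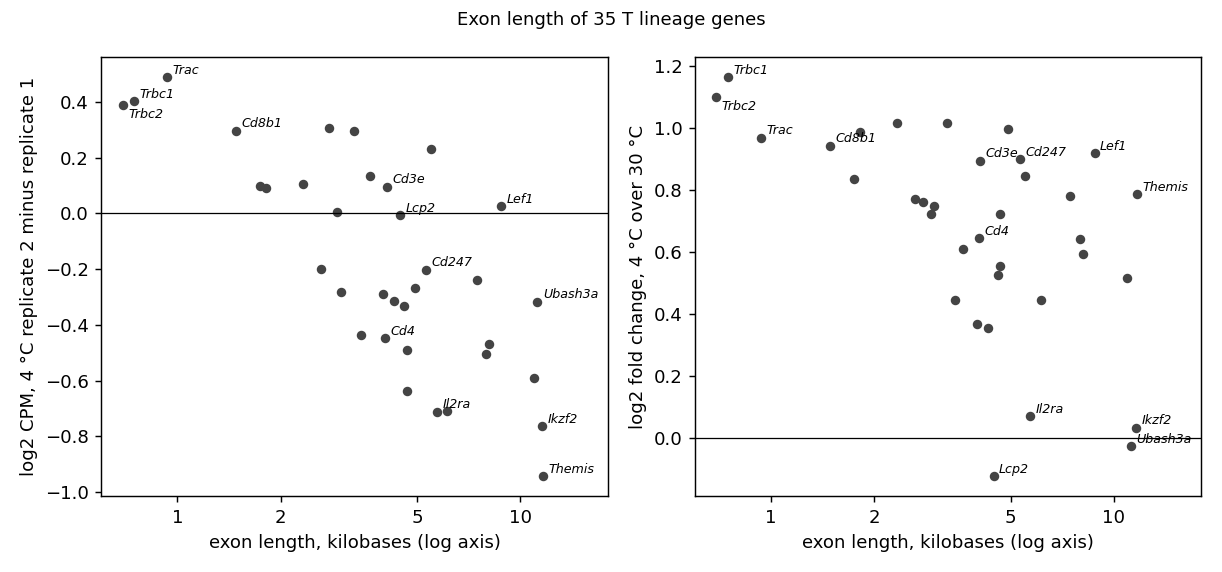
Exon length of each of the 35 genes (kilobases, log axis) against the log2 difference between 4 °C replicate 2 and 4 °C replicate 1 (left) and against the fitted log2 fold change between 4 °C and 30 °C (right). On the left, Trac, Trbc1 and Trbc2 are above 0 and Themis, Ikzf2 and Il2ra are far below it. On the right, short genes lie near 1 and the genes near 0 are of middle or great length.

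Outside the list of 35, the other genes of receptor signalling showed smaller differences. Among 39 such genes (further kinases, phosphatases, adaptors and surface receptors, none of them on the list of 35), 36 had a log2 fold change above 0, with a median of 0.33. Both libraries at 4 °C were above all at 30 °C in 15 of them, against 12.2% of all genes tested. At an unadjusted p under 0.05 (edgeR), 4 were higher and 0 lower, against 2.58% and 4.17% of all genes. This median was 0.16 without 4 °C replicate 1, 0.22 without 30 °C replicate 1 and 0.52 without 30 °C replicate 3. Sit1, a receptor-interacting adaptor, stood at 6.33, 6.00 and 8.08 TMM-scaled CPM at 30 °C and at 11.8 and 12.7 at 4 °C (log2 fold change 0.84, SE 0.24). Tnfrsf18, the gene of GITR on regulatory and activated T cells, had 9.53, 9.53 and 13.4 against 18.1 and 18.7 (0.76, SE 0.24), and Rhoh, a GTPase that brings ZAP-70 to the receptor, had 38.6, 47.0 and 63.6 against 73.8 and 76.2 (0.59, SE 0.24). Many genes of this list are shared with B cells or NK cells.

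Among 9 genes of naive and recirculating T cells (Tcf7, Lef1 and Il7r left out), 8 were above 0, with a median of 0.37. Dapl1 had 2.18, 3.20 and 4.45 TMM-scaled CPM at 30 °C and 6.66 and 9.71 at 4 °C (log2 fold change 1.31, SE 0.39). Ccr7, the receptor that guides naive T cells into lymphoid tissue, had 38.4, 41.2 and 72.9 against 92.2 and 81.8 (0.77, SE 0.30), and Klf2, which sustains recirculation, had 112, 94.4 and 128 against 178 and 209 (0.80, SE 0.19). In these 3 genes the groups did not overlap. Of 21 transcription factors of helper, cytotoxic and regulatory T cells, 18 were above 0 (median 0.25). Of the 21, 3 were non-overlapping, near the share of all genes tested (12.2%), so nothing is read from that count. Of 6 thymocyte genes with enough counts and not among the 35, 4 were above 0 and 2 below. Cd1d1, which presents lipids to NKT cells, had 14.5, 23.0 and 41.9 against 48.1 and 40.1, with overlap, and Rag1, of the recombinase of immature lymphocytes, had 1.54, 4.03 and 5.63 against 1.19 and 0.599. Ptcra, which thymocytes express, named after its values were seen, had at most 1 count in any library.

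Markers of other lymphocytes were read beside the T lineage. All 13 B cell markers used had a log2 fold change above 0, with a median of 0.68. Of the 13, 4 were non-overlapping, against 12.2% of all genes tested. The 13 summed to 1782, 2486 and 4407 TMM-scaled CPM at 30 °C and 4901 and 4167 at 4 °C. As for the T lineage, 30 °C replicate 1 had the lowest sum and 30 °C replicate 3 the highest of its group. The 3 defining B cell markers amounted to 9.43, 12.3 and 15.1 times the CD3 counts at 30 °C and to 12.1 and 10.4 times at 4 °C, with overlap. Of 13 NK cell markers, 9 were above 0 (median 0.11). The 4 defining NK markers (Ncr1, Klrb1c, Klrd1 and Klrk1) came to 0.342, 0.550 and 0.647 of CD3 at 30 °C and to 0.333 and 0.287 at 4 °C, lower in both cold libraries by a narrow margin. By the same measure 76.5% of the 16130 genes tested other than CD3 were lower, so nothing is read from this ratio. The summed level of the 4 overlapped, at 27.25, 46.47 and 74.67 TMM-scaled CPM against 57.28 and 55.72. In the other direction, 10 of 13 myeloid markers (median −0.88) and 8 of 9 erythroblast markers (median −0.83) were below 0. Both libraries at 4 °C were below all at 30 °C in 5 of the 9 erythroblast markers, against 11.0% of all genes tested. The same held for 1 of the 13 myeloid markers, Csf3r, near that share, so nothing is read from the myeloid count. The lowest myeloid values included neutrophil and granule genes such as Mpo (−1.82) and Csf3r (−0.95). Itgam (−1.04), Cd14 (−0.38), Fcgr1 (−0.37) and Adgre1 (−0.25) were also below 0. The 3 above 0 were Csf1r (0.27), Lyz2 (0.22) and Cd68 (0.12). Of these genes, all but Mpo and Csf3r were named after their values were seen. The 9 erythroblast markers summed to 5473, 6076 and 3043 at 30 °C and 3235 and 3108 at 4 °C. The part of these cell types in the level of the 35 genes was not tested.

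**Figure D5:**
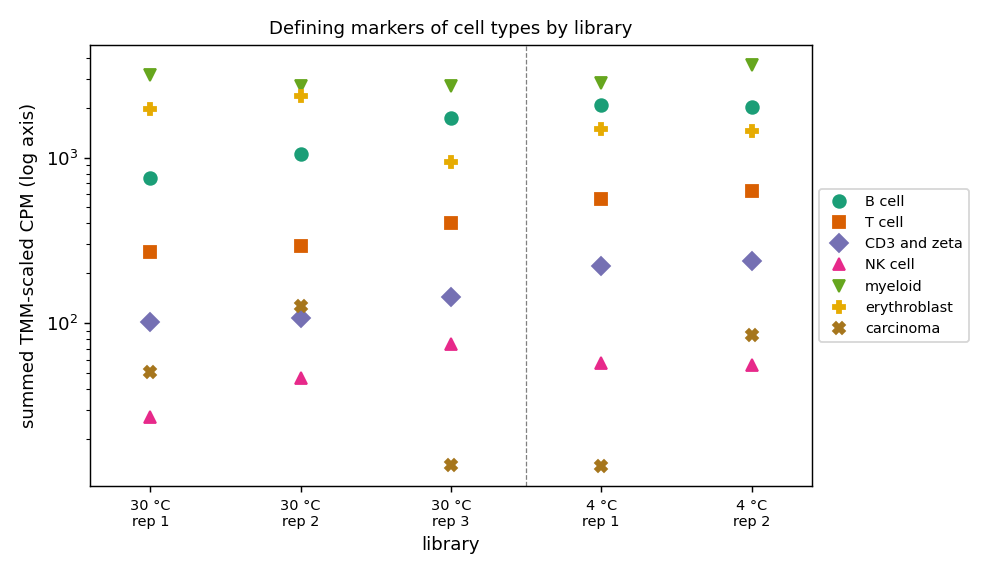
Summed TMM-scaled CPM (log axis) of the defining markers of 7 cell types or complexes in each of the 5 libraries, with 30 °C left and 4 °C right of the dashed line. T cell, CD3 and zeta, and B cell markers are each lowest in 30 °C replicate 1 and above all libraries at 30 °C in both at 4 °C, and carcinoma markers lie far below B cell markers in every library.

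Across the 5 libraries, the genes outside the list whose log2 CPM followed the mean of Cd3e, Cd3d, Cd3g and Cd247 most closely, among 11398 genes with at least 100 counts on average, were Izumo1r (Pearson r = 0.9992), Thy1 (0.9956), Bicdl1 (0.9953), Tnfrsf18 (0.9930) and Sit1 (0.9926). Thy1, a surface glycoprotein of mouse T cells, stood at 48.6, 47.6 and 66.2 TMM-scaled CPM at 30 °C and at 95.5 and 101 at 4 °C. Izumo1r, which encodes the folate receptor 4 of regulatory and some other CD4 T cells, had 11.1, 12.1 and 14.7 against 21.0 and 22.1. The 5 points of each correlation share library depth and composition, and the genes were picked as the highest of many, so the values are a description of these libraries.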

How the data were processed

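RNA from tissue labelled as tumour was sequenced in 3 libraries at 30 °C and 2 at 4 °C. The authors deposited raw counts per gene, made with featureCounts on Gencode vM19 (per the study's methods), and the submitters' notes also name fastp, HISAT, RSEM and GRCm38. Strand setting and treatment of shared reads are not given in the sources used here, so overlapping and antisense genes cannot be told apart. Unnamed entries (333 of 54446, 0.0101% to 0.0170% of counts) were left out.

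Counts were filtered with filterByExpr and scaled by TMM in edgeR 4.0.16 (R 4.3.3), and 16133 genes were fitted in 1 quasi-likelihood model with no covariate. Adjusted p-values are Benjamini-Hochberg over all genes tested, and SE is that of the log2 fold change, taken from the F statistic. DESeq2 1.42.0 was an alternative. The code was tested on simulated data. Positions and exon lengths come from GENCODE M21 (GRCm38). Groups were called non-overlapping when both libraries at 4 °C were beyond all 3 at 30 °C.

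The members and all lists were chosen with earlier results of these data known. All members are named. Values in every library are given for receptor chains, coreceptors, non-overlapping members and the 8 largest differences. Of other lists, the 3 genes with the smallest p are named, and any other gene was picked after its values were seen. A gene of the B cell list is not reported here and was left out of its sums. A count of 3 or fewer is the floor (0.148 to 0.185 CPM). No batch is given, and the p-values measure the spread between these libraries.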

Additional observations from a re-analysis of the deposited data

How the results depend on the processing

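Across 13 alternatives, 31 of the 35 genes had a log2 fold change above 0 under every setting. Lcp2, Ubash3a, Il2ra and Ikzf2 changed direction under at least 1. The genes were chosen with this contrast known and the settings share the same libraries, so the count of 31 does not test the direction. The median of the 35 lay between 0.601 and 0.947 with each library left out in turn, and that of the other receptor signalling genes between 0.156 and 0.518. The count of genes lower at 4 °C, 2 of 35, was 1 with upper-quartile scaling or library totals alone and 1 to 4 with a library left out. Leaving out a library at 4 °C leaves a single sample there, which is taken to vary like the others. The count of all genes called, 0, was 8 with library totals alone, 118 with the DESeq2 Wald test and 1090 at an unadjusted p under 0.05. Of the 35, 9 were called by DESeq2 and 19 at an unadjusted p under 0.05, a count of 13 to 25 with a library left out. For none of these shifts was the cause tested. The count of non-overlapping genes among the 35, 24, was 20 with library totals alone or with acinar genes removed and 24 to 33 with a library left out. At the same scaling, leaving out a library can only keep or raise such a count, so that range does not test it. Replicate numbers are shared by the groups, but no pairing is named in the labels, and the numbers are used only to name the samples. Deviations from the group mean of same-numbered libraries correlated at −0.255 for number 1 and 0.259 for number 2. With 2 libraries at 4 °C, their deviations are exact opposites, so these correlations cannot show whether the numbers carry a pairing. With the replicate block 45 genes were called over all genes and 0 of the 35, with a median of 0.953. The lowest count of any of the 35 genes in a library was 46.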
